A study of Mus musculus with 2 samples.

Results

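A set of 7 genes linked to T-cell anergy was followed in leukocytes of the pancreatic islet: Nrn1, Izumo1r, Nt5e, Tbc1d4, Cblb, Rnf128 and Pdzrn3, 7 of the 32285 genes in the deposited matrices. They were taken by gene symbol, and the set was assembled around Nrn1 and Tbc1d4 because both had been seen higher in CD8 T cells of one of the libraries: the members were thus selected on their CD8 levels in these same data. The CD8 comparison of these genes is therefore given as a description, and nothing is read from it. Droplet-based 3' single-cell RNA sequencing was done on live CD45+CD31- cells sorted from hand-picked islets of female mice aged 12 weeks. One group was WT NOD, the strain that develops autoimmune diabetes without treatment, and the other was labelled NOD.Cxcl16-/-, NOD mice recorded as lacking the chemokine gene Cxcl16. Each group has 1 library, so no difference below has a replicate check, no p-value is given, and the number of animals behind a library is not given in the sources used here.

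The WT NOD library held 13859 cell barcodes and 93553185 unique molecular identifiers (UMIs, one per captured transcript), and the other held 10554 barcodes and 98681133 UMIs. After filtering, 10717 and 9323 cells were kept, with medians of 3860 and 4889 UMIs per cell. Cxcl16 itself stood at 71.5 CPM (a gene's UMIs scaled to a common total, counts per 1e6 UMIs) for WT NOD and at 93.8 CPM in the library labelled NOD.Cxcl16-/-, so the transcript was present in the library labelled as lacking the gene. Which part of the gene was deleted, and whether the counted 3' reads lie outside it, is not given in the sources used here, and the library is named by its label throughout. The 2 libraries shared 45 barcode sequences. All intervals are at the 95% level and cover counting error only.

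Anergy is a state in which a T cell that met its antigen without sufficient costimulation stays alive but responds poorly to further stimulation. E3 ubiquitin ligases that lower the signal from the T-cell receptor are part of that state, among them CBL-B, encoded by Cblb, and GRAIL, encoded by Rnf128. CD4 T cells in this state are commonly recognised by folate receptor 4, encoded by Izumo1r, together with CD73, encoded by Nt5e, the ectoenzyme that makes extracellular adenosine. Nrn1 encodes neuritin, a small GPI-anchored protein first studied in neurons and also made by regulatory and anergic T cells. Tbc1d4 encodes AS160, a Rab GTPase-activating protein that restrains glucose transporter traffic until it is phosphorylated, and Pdzrn3 encodes another RING-type ubiquitin ligase with PDZ domains.

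The genes lie on different chromosomes except for one pair. On the mouse build GRCm38, Nrn1 (ENSMUSG00000039114) lies on chromosome 13 from 36725361 to 36735131 on the minus strand, and Tbc1d4 (ENSMUSG00000033083) on chromosome 14 from 101442360 to 101609191 on the minus strand. Izumo1r and Nt5e are both on chromosome 9, with starts of 14885814 and 88327197. Cblb is on chromosome 16, Rnf128 on chromosome X and Pdzrn3 on chromosome 6. All 7 are annotated as protein-coding. Promoter windows of 300 bases, from 250 bases before to 50 bases after the start, were matched by symbol in RefSeq (GRCm38.p6) for 6 of the 7, all but Nrn1.

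The 250 bases before the start are shown for Tbc1d4 and Pdzrn3, whose transcripts were found in the same cells as Nrn1 in the co-detection below, and whose start RefSeq and GENCODE place at the same base. Capitals mark matches, on either strand, to the GC box GGGCGG and to the NFAT core GGAAA, the letters bound by NFAT factors of the anergy programme. The Tbc1d4 window is chr14:101609192-101609441 and the Pdzrn3 window is chr6:101377898-101378147, both written 5' to 3' on the minus strand.
Tbc1d4: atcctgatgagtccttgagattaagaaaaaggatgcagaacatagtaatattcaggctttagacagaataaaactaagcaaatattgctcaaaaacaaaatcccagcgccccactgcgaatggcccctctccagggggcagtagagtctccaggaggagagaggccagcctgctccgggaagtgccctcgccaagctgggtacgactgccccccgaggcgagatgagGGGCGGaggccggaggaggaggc
Pdzrn3: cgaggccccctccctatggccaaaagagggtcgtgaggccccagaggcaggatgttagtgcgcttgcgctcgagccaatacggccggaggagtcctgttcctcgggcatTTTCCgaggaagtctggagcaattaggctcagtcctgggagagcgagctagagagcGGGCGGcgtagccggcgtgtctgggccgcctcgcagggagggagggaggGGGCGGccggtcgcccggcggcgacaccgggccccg
Tbc1d4 held 1 GC box and no NFAT core, and Pdzrn3 held 2 GC boxes and 1 NFAT core. Over the 300 bases, a GC box was found in 5 of the 6 windows against 35.7% of 32851 RefSeq promoters of that length, and an NFAT core in 4 of 6 against 61.3%. The E-box CACCTG was in 2 of 6 against 20.2%. Matches to AP-1 (TGAGTCA) were in 0 of 6 against 5.20% of all promoters, and matches to EGR (GCGTGGGCG or GCGGGGGCG) in 0 of 6 against 3.47%. The GC content was 55.7% for Tbc1d4 and 68.7% for Pdzrn3, where the median promoter had 52.7%. These matches describe the letters only.

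T cells were gated per barcode by UMIs: at least 2 UMIs summed over Cd3d, Cd3e and Cd3g, no Trdc and no panel of B, plasma or myeloid cells, then Cd8a or Cd8b1 without Cd4 and Foxp3 (CD8), Cd4 without Cd8 genes and Foxp3 (CD4 non-Treg), or Foxp3 without Cd8 genes (Treg, regulatory T cells). The CD8 gate held 2453 WT NOD cells and 1485 cells of the library labelled NOD.Cxcl16-/-, at medians of 4649 and 5535 UMIs. The CD4 non-Treg gate held 1250 and 1280 cells at medians of 4154.5 and 4709.5 UMIs, and the Treg gate 265 and 412 cells at medians of 4412 and 4979 UMIs. Of the genes that the gates do not use, Nkg7, Cd40lg and Il2ra were highest in the T gate of their lineage. Zbtb7b, a CD4 check gene, was higher in the Treg gate (18.7 and 12.7 CPM) than in the CD4 non-Treg gate (14.5 and 10.0 CPM). In the CD8 gate it stood at 0.758 and 0.841 CPM. Nkg7, a cytotoxic granule gene, stood at 1602 and 1538 CPM in the CD8 gate against 255 and 273 CPM in the CD4 non-Treg gate. Cd40lg, the helper-cell ligand of CD40, stood at 132 and 113 CPM in the CD4 non-Treg gate against 4.29 and 3.03 CPM in the CD8 gate. Il2ra, the high-affinity IL-2 receptor chain, stood at 100.3 and 87.7 CPM in the Treg gate against 19.9 and 17.6 CPM in the CD4 non-Treg gate.

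Nrn1 was highest in CD4 non-Treg cells of both libraries. WT NOD cells of that gate held 98.0 CPM (90.8 to 105.6; 683 UMIs), and those from the library labelled NOD.Cxcl16-/- held 131 CPM (123 to 138; 1105 UMIs). In the CD8 gate it stood at 34.1 CPM (31.3 to 37.1; 540 UMIs) and 67.0 CPM (62.4 to 71.8; 796 UMIs), and in the Treg gate at 65.9 CPM (54.1 to 79.4; 109 UMIs) and 41.2 CPM (34.5 to 48.9; 133 UMIs). The second place thus went to Treg cells in the WT NOD library and to CD8 cells in the other. Beyond these gates Nrn1 was near the limit of detection in B cells (0.710 and 0.772 CPM) and plasma cells (0.256 and 0.149 CPM). Gamma-delta T cells held 8.49 and 28.7 CPM, but the higher value rested on 56 UMIs in 8 of 300 cells. Migratory dendritic cells held 22.2 and 10.2 CPM, from 4 and 7 cells with a UMI. By counting intervals, CD8 and migratory dendritic cells overlapped in the WT NOD library, as did migratory dendritic and gamma-delta T cells, Treg and gamma-delta T cells overlapped in the other, and B and plasma cells overlapped in both.

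**Figure D1:**
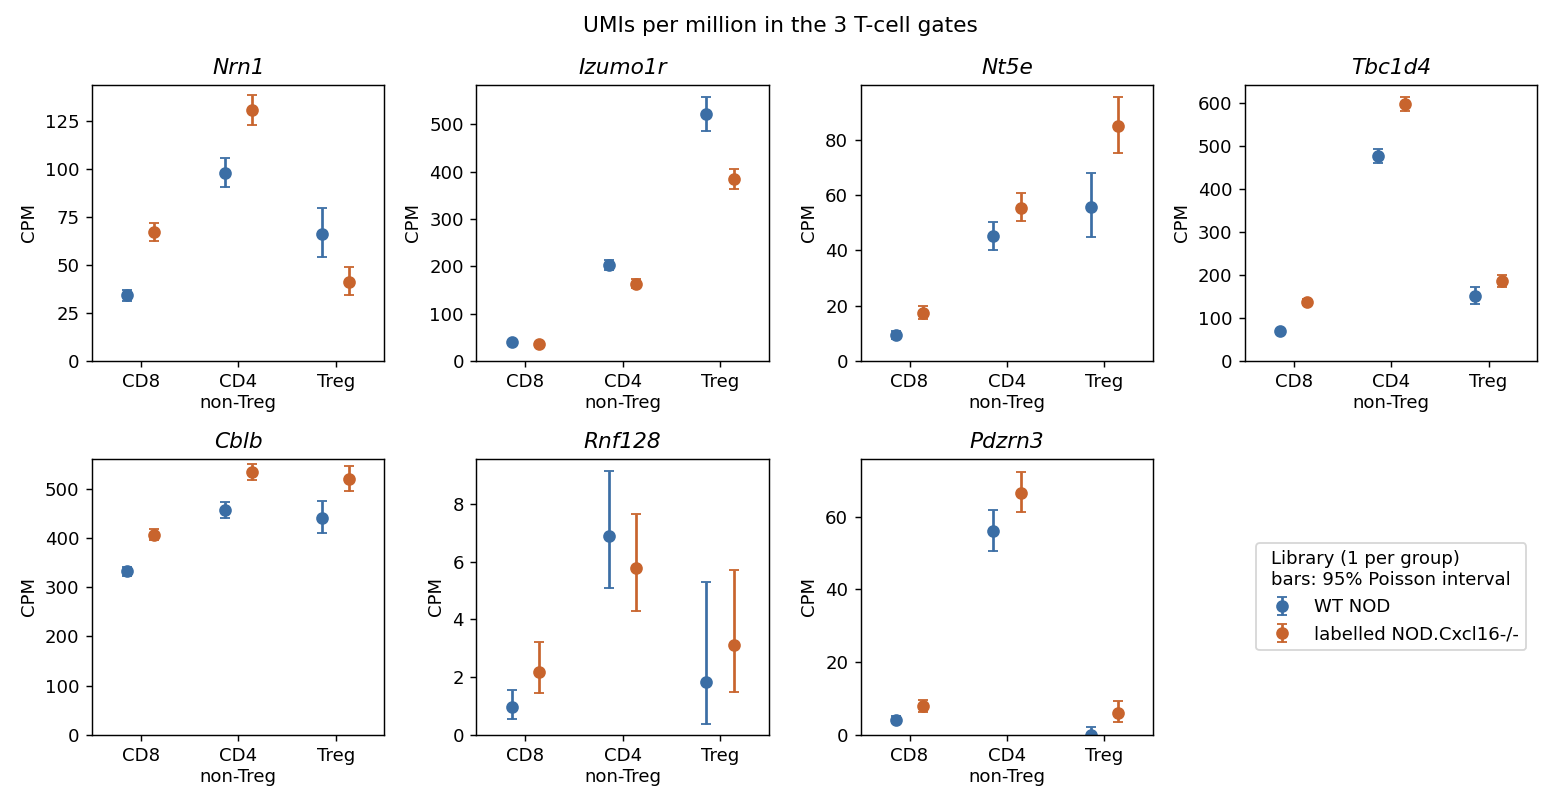
Level of each of the 7 genes, in UMIs scaled to a common total (CPM, linear axis from 0), in the CD8, CD4 non-Treg and Treg gates of the WT NOD library (blue) and the library labelled NOD.Cxcl16-/- (orange), 1 library per group. Points are summed UMIs of a gate and bars are 95% Poisson intervals. Nrn1, Tbc1d4 and Pdzrn3 peak in the CD4 non-Treg gate and Izumo1r in the Treg gate of both libraries.

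Tbc1d4 was highest outside the T gates. Among T cells its level was 477 CPM (460 to 493; 3322 UMIs) in WT NOD CD4 non-Treg cells and 599 CPM (583 to 616; 5070 UMIs) in those of the library labelled NOD.Cxcl16-/-. In the CD8 gate it stood at 68.5 CPM (64.5 to 72.7; 1085 UMIs) and 137 CPM (130 to 143; 1625 UMIs), and in the Treg gate at 152 CPM and 186 CPM. Migratory dendritic cells exceeded every T gate, with 1571 and 1900 CPM, so Tbc1d4 was not a T-cell transcript alone. B cells held 15.4 CPM (65 UMIs) and 34.7 CPM (180 UMIs), gamma-delta T cells 77.9 and 158 CPM, and plasma cells 11.5 and 14.0 CPM. The library labelled NOD.Cxcl16-/- was the higher in all 7 gates with at least 50 cells per library, and the counting intervals of the 2 libraries overlapped only in plasma cells and, at their edges, Treg cells (133 to 172 against 171 to 201 CPM). Without barcodes holding islet hormone UMIs the order in Treg cells was the opposite, with a log2 ratio of -0.13. The share of cells did not follow the level everywhere: after thinning to 2000 UMIs, Tbc1d4 was found in 10.8% of WT NOD and 7.56% of the other gamma-delta T cells, with counting intervals that overlapped, and in 1.88% and 1.96% of B cells. Its unthinned UMIs per positive cell were 2.14 and 5.13 in gamma-delta T cells and 2.03 and 4.19 in B cells. The NK, ILC2, macrophage, cDC1, cDC2 and plasmacytoid dendritic cell gates held fewer than 50 cells in at least 1 library and were left out.

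**Figure D2:**
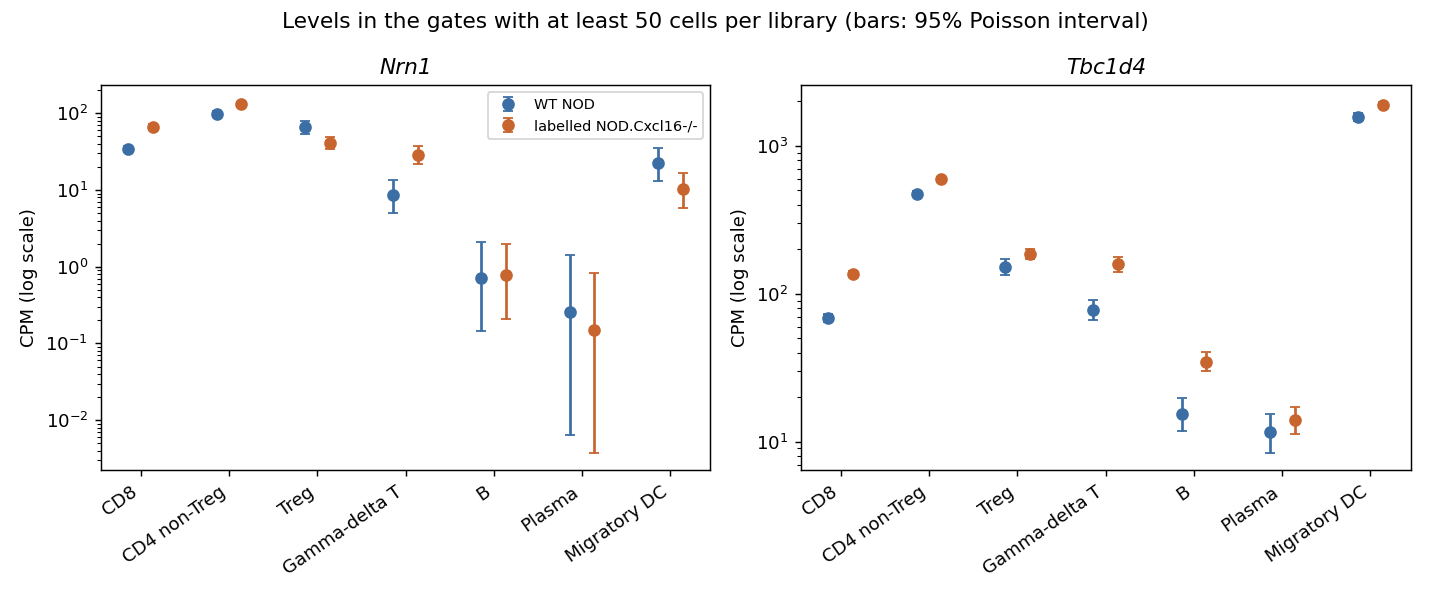
Nrn1 (left) and Tbc1d4 (right) in CPM on a log axis, in the 7 gates with at least 50 cells in both libraries. Points are summed UMIs of a gate, bars 95% Poisson intervals, blue the WT NOD library and orange the library labelled NOD.Cxcl16-/-. Nrn1 is near 1 CPM or below in B and plasma cells, and Tbc1d4 is highest in migratory dendritic cells at 1571 and 1900 CPM.

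The surface-marker pair of anergic CD4 cells had its own order. Izumo1r was highest in Treg cells, with 521 CPM (487 to 557; 863 UMIs) for WT NOD and 384 CPM (363 to 406; 1240 UMIs) for the library labelled NOD.Cxcl16-/-. It stood at 202 CPM (192 to 213) and 163 CPM (155 to 172) in CD4 non-Treg cells and at 39.3 and 35.1 CPM in CD8 cells. Nt5e was also highest in Treg cells of both libraries, at 55.6 CPM (44.8 to 68.2; 92 UMIs) and 84.9 CPM (75.2 to 95.6; 274 UMIs). In CD4 non-Treg cells it stood at 45.2 CPM (40.3 to 50.5) and 55.4 CPM (50.5 to 60.6), where the WT NOD interval overlapped that of WT NOD Treg cells. In CD8 cells Nt5e stood at 9.35 CPM (7.90 to 11.0; 148 UMIs) and 17.3 CPM (15.0 to 19.9; 206 UMIs).

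The ubiquitin ligases fell into 3 patterns. Cblb was spread over all T gates, at 333 and 407 CPM in CD8, 458 and 535 CPM in CD4 non-Treg and 442 and 521 CPM in Treg cells, and B cells held 194 and 218 CPM. Pdzrn3 was concentrated in CD4 non-Treg cells, with 55.9 CPM (50.5 to 61.8; 390 UMIs) and 66.6 CPM (61.2 to 72.4; 564 UMIs), against 4.04 CPM (64 UMIs) and 7.74 CPM (92 UMIs) in CD8 cells. In Treg cells Pdzrn3 had no UMI in the WT NOD library, where 3 UMIs would be 1.81 CPM, and 19 UMIs in the other, all from 8 cells and 9 of them from 1 cell. B cells had no Pdzrn3 UMI in either library. Rnf128 was barely detected, with 6.89 CPM (48 UMIs) and 5.79 CPM (49 UMIs) in CD4 non-Treg cells, 15 and 26 UMIs in the CD8 gate and 3 and 10 UMIs in the Treg gate.

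The comparison between libraries was made gate by gate, as the log2 of the level under the label NOD.Cxcl16-/- divided by the WT NOD level, with 1 CPM added to both. A gene counted as measured with a mean of at least 5 CPM and at least 20 UMIs, and as higher or lower past 1.5-fold. In the CD8 gate 6 members were measured and 4 were higher, where 1.42% of 8936 genes were higher, 0.94% lower and 2.36% past the limit in either direction. This is the contrast by which the set was chosen. Tbc1d4 had a log2 ratio of 0.99 (0.88 to 1.11), Nrn1 0.95 (0.81 to 1.13), Nt5e 0.82 (0.58 to 1.20) and Pdzrn3 0.79 (0.46 to 1.42). Cblb, at 0.29 (0.24 to 0.35), and Izumo1r, at -0.16 (-0.35 to 0.02), lay within 1.5-fold, and Rnf128 was below the level for measurement. By the mean of each cell's CPM Izumo1r was past 1.5-fold lower, at -0.61. The median of all genes was 0.04. Pdzrn3 passed on few transcripts and lost its call in 3 of the alternatives: 0.34 with 10 CPM added in place of 1, 0.39 with the mean of each cell's CPM, and 0.08 without barcodes holding islet hormone UMIs. Nt5e lost its call with 10 CPM added (0.50) and with doublets kept (0.52).

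Islet hormone transcripts, which CD8 T cells do not make, were also unequal between the CD8 gates. Ins1, Ins2 and Gcg were higher in the library labelled NOD.Cxcl16-/- for 3 of 3 genes, with Ins2 at 18.8 against 66.8 CPM, Ins1 at 11.9 against 40.5 CPM and Gcg at 96 against 107 UMIs. Of the acinar markers, Prss2 stood at 3.22 and 2.36 CPM in the CD8 gates (51 and 28 UMIs) and Cpa1 at 0 in both. The erythroid marker Hbb-bs was at 0, and the stromal marker Col1a1 stood at 0.126 and 0.252 CPM. Without barcodes holding a UMI of Ins1, Ins2 or Gcg the ratios were 0.86 for Nrn1, 0.96 for Tbc1d4 and 0.86 for Nt5e. Without the 10 barcodes richest in the gene they were 1.00, 0.90 and 0.87. Without the shared barcodes they were 0.96, 1.00 and 0.83.

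In CD4 non-Treg cells 0 of the 7 measured members passed 1.5-fold in either direction, where 1.41% of 9131 genes were higher, 1.34% lower and 2.75% past the limit in either direction. The ratios ran from -0.30 for Izumo1r (-0.41 to -0.20) to 0.41 for Nrn1 (0.27 to 0.55), with Tbc1d4 at 0.33 (0.27 to 0.39), Nt5e at 0.29, Pdzrn3 at 0.25 and Cblb at 0.22. Rnf128 was at -0.22 with an interval of -0.85 to 0.35. The Nrn1 ratio came closest to the limit and depended on which CD4 cells were counted. It was 0.60, past 1.5-fold, in a stricter gate without Il2ra or Ikzf2 UMIs, and 0.60 without the 10 barcodes richest in Nrn1. It was 0.17 without hormone-bearing barcodes. Ins2 stood at 148 and 137 CPM in these cells, but it was found in 95 of 1250 WT NOD cells against 448 of 1280 of the other library, and 1 WT NOD cell held 750 of the 1031 UMIs. The acinar gene Prss2 stood at 2.30 and 12.5 CPM (16 and 106 UMIs). The part of RNA from other islet cells in the Nrn1 ratio was not tested further.

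In Treg cells 5 members were measured, of which Nt5e was higher and Nrn1 lower, where 5.13% of 9196 genes were higher, 5.27% lower and 10.4% past the limit in either direction. This gate held the fewest cells of the 3, and more genes passed in it by this rule. Nt5e had a log2 ratio of 0.60 (0.27 to 0.97) and Nrn1 of -0.66 (-1.05 to -0.30). Izumo1r, at -0.44 (-0.57 to -0.31), Tbc1d4, at 0.29 (0.08 to 0.51), and Cblb, at 0.24 (0.11 to 0.36), lay within 1.5-fold. In the stricter gate Izumo1r was past it, at -0.65. The Nt5e ratio lay just past the limit and was within it at 0.46 after thinning to 2000 UMIs, 0.56 with at least 2000 UMIs per barcode, 0.53 with 10 CPM added and 0.35 in the stricter gate. It was 1.05 without the 10 barcodes richest in Nt5e. The Nrn1 value rested on few cells: the 10 richest barcodes held 56.0% of its 109 WT NOD UMIs and 54.9% of its 133 UMIs in the other library. One WT NOD barcode whose sequence also occurs in the other library held 11 of the 109. Without shared barcodes Nrn1 stood at 59.4 against 41.3 CPM, a ratio of -0.51 that no longer passed 1.5-fold. Ins2 stood at 117 and 88.6 CPM in Treg cells, from 20 of 265 WT NOD cells and 159 of 412 cells of the other library. Without barcodes holding hormone UMIs, which takes a larger share of cells from the latter, the Nrn1 ratio was -1.11.

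**Figure D3:**
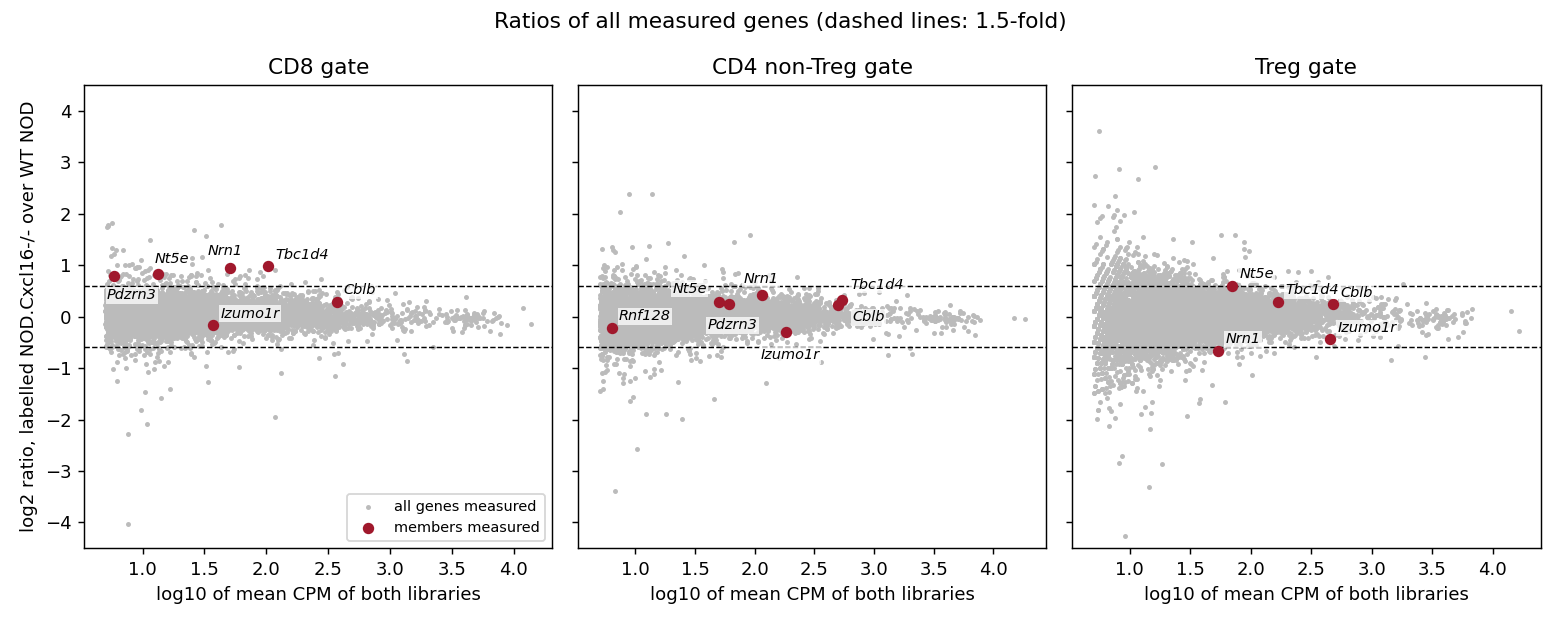
Log2 ratio of the level under the label NOD.Cxcl16-/- to the WT NOD level (1 CPM added) against the log10 of the mean CPM, for every measured gene (grey) and the measured members (red) in the CD8, CD4 non-Treg and Treg gates. Dashed lines mark 1.5-fold. In the CD8 gate Tbc1d4, Nrn1, Nt5e and Pdzrn3 lie above the upper line, in the CD4 non-Treg gate no member crosses a line, and in the Treg gate Nt5e lies on the upper side and Nrn1 on the lower.

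The share of cells with a transcript was compared after every cell was thinned to 2000 UMIs and shallower cells were left out (504 and 74 in the CD8 gate). Nrn1 was then found in 4.62% (3.73 to 5.65) of WT NOD CD8 cells and in 7.87% (6.52 to 9.40) of CD8 cells under the label NOD.Cxcl16-/-. Unthinned, the shares were 8.07% and 14.7%. Tbc1d4 was found in 11.9% and 16.7% of thinned CD8 cells (20.4% and 33.7% unthinned) and Nt5e in 1.69% and 3.54% (4.73% and 10.2% unthinned). B cells, which gave the background at medians of 4072 and 4149 UMIs, held Nrn1 in 0.110% and 0.0893% of thinned cells, Tbc1d4 in 1.88% and 1.96% and Nt5e in 0.331% and 0.625%. The CD8 shares of these 3 genes lay above that background in both libraries.

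In CD4 non-Treg cells, with 107 and 32 shallow cells left out, Nrn1 was found in 8.75% (7.17 to 10.5) and 11.4% (9.67 to 13.3) of thinned cells, and 12.9% and 19.3% unthinned. Tbc1d4 was found in 47.2% and 52.1% (60.1% and 69.4% unthinned), the largest shares of any member but Cblb in this gate. Pdzrn3 was found in 6.91% (5.51 to 8.54) and 10.2% (8.55 to 12.0), and 11.8% and 19.1% unthinned. Izumo1r went the other way, with 29.0% (26.3 to 31.7) and 22.0% (19.8 to 24.4), and 44.4% and 40.5% unthinned. In Treg cells, with 25 and 13 left out, Izumo1r was found in 62.9% (56.5 to 69.0) and 51.9% (46.9 to 56.9), and 79.2% and 77.7% unthinned. Nrn1 was found in 9.17% (5.83 to 13.5) and 6.77% (4.51 to 9.69) of Treg cells, and 15.8% and 11.7% unthinned, a difference within the counting intervals at this depth.

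Several members at once were common in CD4 non-Treg and Treg cells, and their order depended on the number of members and on depth. At 2000 UMIs, 229 of 1143 WT NOD cells (17.8 to 22.5%) and 258 of 1248 cells of the other library (18.5 to 23.0%) carried at least 3 of the 7 transcripts. In Treg cells this was 31 of 240 (12.9%) and 55 of 399 (13.8%), and in CD8 cells 47 of 1949 (2.41%, 1.78 to 3.19) and 66 of 1411 (4.68%, 3.64 to 5.91). At least 2 were carried by 47.6% and 50.1% of CD4 non-Treg and 52.9% and 48.6% of Treg cells. Unthinned, at least 3 were carried by 40.9% and 45.9% of CD4 non-Treg and 37.0% and 46.6% of Treg cells. The CD8 count moves with the genes by which the set was chosen.

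Within CD4 non-Treg cells the share with Nrn1 was larger among Pdzrn3-positive cells than among cells positive for any other member. In the WT NOD library 25 of 79 Pdzrn3-positive cells (31.6%, 21.6 to 43.1) carried Nrn1 at 2000 UMIs, against 75 of 1064 Pdzrn3-negative cells (7.05%, 5.58 to 8.76). In the library labelled NOD.Cxcl16-/- it was 36 of 127 (28.3%, 20.7 to 37.0) against 106 of 1121 (9.46%, 7.81 to 11.3). The pair was thus seen 3.62 and 2.49 times as often as the product of their shares. Cells with Tbc1d4 carried Nrn1 in 66 of 539 cases against 34 of 604 without it in the WT NOD library, and in 104 of 650 against 38 of 598 in the other. Pdzrn3 itself was found with Tbc1d4 at 1.61 and 1.53 times the product of shares, and Nt5e with Tbc1d4 at 1.54 and 1.41 times.

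Of the surface pair of anergic CD4 cells, Nt5e was found with Nrn1 more often than the product of their shares and Izumo1r slightly less often. For both genes the intervals of positive and negative cells overlapped in both libraries. Nrn1 was found in 15 of 106 Nt5e-positive against 85 of 1037 negative WT NOD cells and in 20 of 109 against 122 of 1139 cells of the other library, 1.62 and 1.61 times the product of shares, with intervals that overlapped in both. Nrn1 and Izumo1r were found together at 0.86 and 0.93 times the product of their shares, with Nrn1 in 25 of 331 Izumo1r-positive WT NOD cells (7.55%, 4.95 to 10.9) and 75 of 812 negative cells (9.24%, 7.33 to 11.4). Nrn1 with Cblb gave 0.94 and 0.99 times. Izumo1r and Nt5e themselves were found together at 1.30 and 1.21 times. In CD8 cells Nrn1 with Izumo1r was instead seen more often than the product, at 1.84 and 2.46 times, from 12 and 18 cells with both. The intervals overlapped in the WT NOD library. In the other, Nrn1 was in 19.4% (11.9 to 28.9) of Izumo1r-positive against 7.06% (5.73 to 8.57) of negative CD8 cells. Nrn1 with Tbc1d4 in CD8 cells gave 1.96 and 2.53 times, with Nrn1 in 21 of 232 against 69 of 1717 WT NOD cells and in 47 of 236 against 64 of 1175 cells of the other library. Cells of 1 library share their source, so these 21 pairs are descriptions of the cells in hand.

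**Figure D4:**
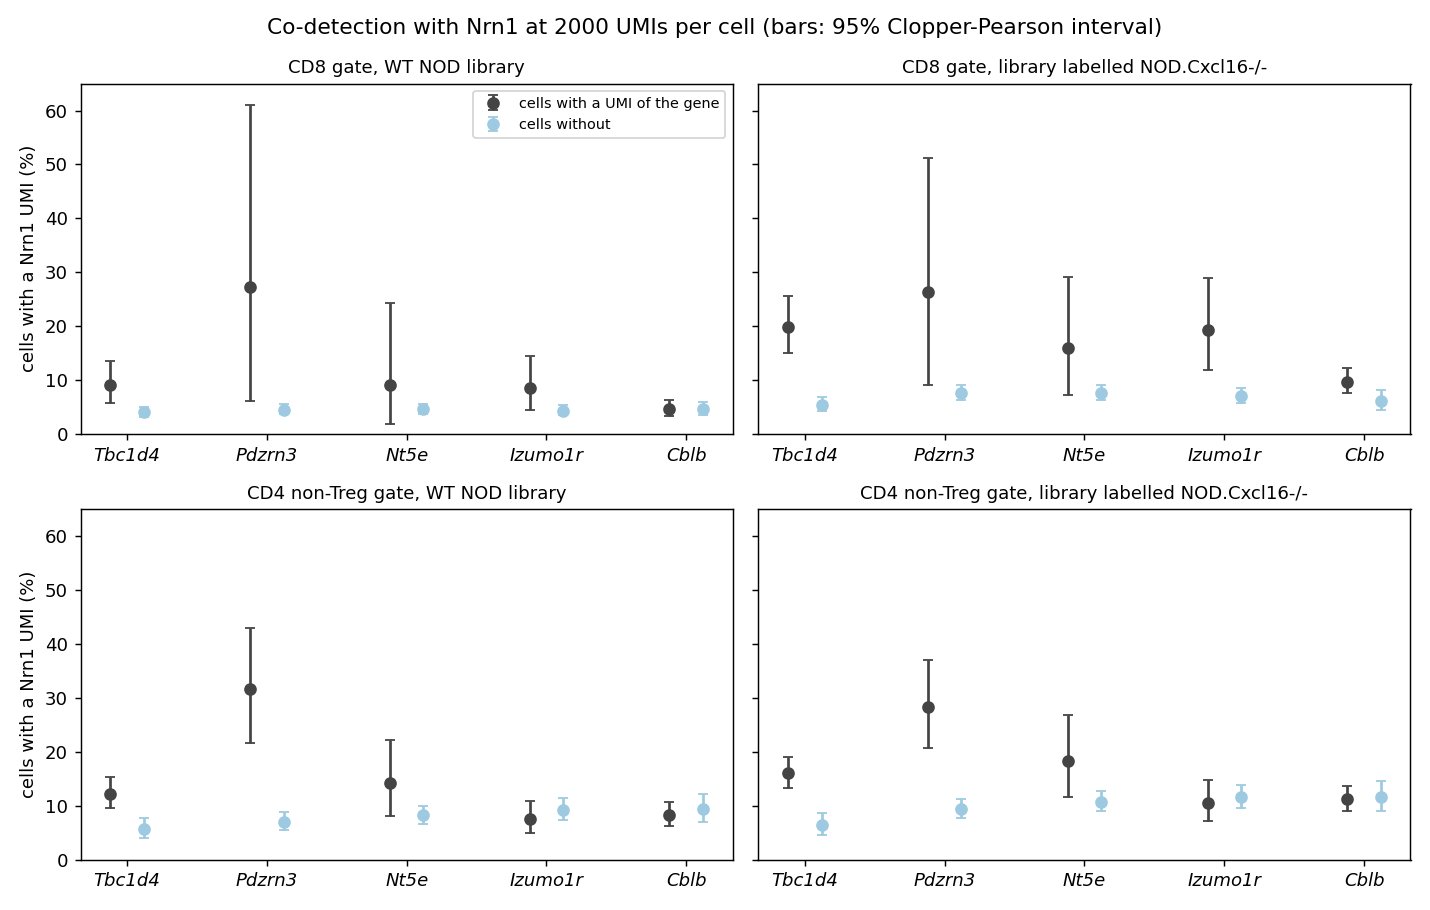
Percent of cells with an Nrn1 UMI among cells with (dark) and without (light) a UMI of Tbc1d4, Pdzrn3, Nt5e, Izumo1r or Cblb, after thinning to 2000 UMIs, in the CD8 gate (top) and CD4 non-Treg gate (bottom) of both libraries. Bars are 95% Clopper-Pearson intervals over cells of 1 library. In the CD4 non-Treg gate the intervals for Pdzrn3 and Tbc1d4 do not overlap in either library, and those for Izumo1r and Cblb do.

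Cells with an Nrn1 UMI were then set against cells without one in the same gate and library, on all UMIs. In the CD4 non-Treg gate there were 161 positive cells in the WT NOD library (median 5742 UMIs, against 4014 in negative cells) and 247 in the other (6643 against 4407). Pdzrn3 stood at 135 against 35.7 CPM and at 117 against 48.1 CPM, Tbc1d4 at 676 against 426 and at 854 against 504 CPM, and Nt5e at 51.5 against 43.6 and at 82.1 against 45.5 CPM. Tnfsf8, which encodes the CD30 ligand, stood at 699 against 350 CPM and at 715 against 272 CPM. Nrp1, encoding neuropilin-1, a surface receptor of regulatory and anergic T cells, stood at 126 against 66.1 CPM and at 127 against 69.0 CPM. Izumo1r (192 against 205 and 194 against 152 CPM) and Cblb (417 against 468 and 484 against 554 CPM) differed less than 1.5-fold in both libraries. Nt5e differed less than 1.5-fold in the WT NOD library only.

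Ccr7, the chemokine receptor of lymph-node homing, stood at 221 CPM in Nrn1-positive against 187 CPM in Nrn1-negative WT NOD CD4 non-Treg cells, and at 432 against 203 CPM in the other library.

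The 10 genes with the highest ratio in Nrn1-positive over Nrn1-negative WT NOD CD4 non-Treg cells were Slc18b1, 1810009J06Rik, Ccl1, Ins1, Ins2, Rep15, Stfa3, Elmod1, Gm20468 and Gm2663, and single cells carried much of that order. In 4 of the 10 the positive cells with a UMI numbered 1 to 3, and 1 cell held 750 of the 842 Ins2 UMIs and 487 of the 542 Ins1 UMIs. In the other library 7 of the 10 were above 0 on the log2 scale and 5 at least 2-fold. The T-cell chemokine gene Ccl1 kept its ratio, at 4.40 for WT NOD and 4.72 in the other library, from 4 and 11 cells. Stfa3, a stefin-type protease inhibitor gene, had 3.62 and 2.24, Elmod1 3.34 and 2.29, 1810009J06Rik 5.45 and 5.10, and Gm2663 3.07 and 2.43. Ins1 had 4.18 and 0.32, Ins2 4.09 and 0.26, Slc18b1 5.57 and -0.57, Rep15 4.03 and -0.22 and Gm20468 3.26 and 0.00. With a UMI required in at least 10 positive cells, a rule added after these values were seen, the 10 leading genes were all above 0 in the other library and 9 were at least 2-fold. Among them Penk, the enkephalin precursor, stood at 388 against 79.4 and at 249 against 59.6 CPM, Nrgn, a calmodulin-binding protein gene, at 157 against 25.6 and at 183 against 41.1 CPM, and Dgki, a diacylglycerol kinase, at 59.2 against 11.2 and at 55.9 against 10.4 CPM.

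Across the 7 gates of both libraries, 14 points in all, the genes whose log2 level ran most like that of Nrn1 among 9143 genes included Rbpj (Pearson r 0.98), Chst2, Hnrnpll, Serpinb6a, Endod1, Phactr2, Tesc, Thoc7 and Stk39 (r 0.95). The points share their library and gate, and the order is largely that of T against B and plasma cells. Rbpj, the transcription factor of the Notch pathway, stood at 213 and 219 CPM in CD4 non-Treg, 145 and 179 CPM in Treg and 141 and 192 CPM in CD8 cells. The other members came further down, at r 0.78 for Izumo1r, 0.71 for Pdzrn3, 0.70 for Tbc1d4, 0.68 for Cblb and 0.56 for Nt5e.

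The wider anergy programme was followed with 20 further genes, among them the transcription factors Egr2, Egr3 and Nfatc1, the diacylglycerol kinases Dgka and Dgkz and the ubiquitin ligase Itch. In the CD8 gate 19 were measured, 1 was higher and 0 lower, with a median log2 ratio of 0.10 against 0.04 for all genes. The 1 was Nrp1, at 16.2 CPM for WT NOD and 33.9 CPM in the library labelled NOD.Cxcl16-/- (1.02, 0.84 to 1.30). In CD4 non-Treg cells 0 of 19 and in Treg cells 0 of 17 measured genes passed 1.5-fold in either direction, with medians of -0.01 and -0.03. Over all genes 2.36% passed in either direction in CD8, 2.75% in CD4 non-Treg and 10.4% in Treg cells. In a list this short, such counts do not set the programme apart from all genes. Egr2, a regulator of anergy genes, stood at 8.46 and 6.90 CPM in CD8 and at 6.31 and 8.74 CPM in CD4 non-Treg cells. Dgka, which removes the second messenger diacylglycerol, stood at 92.1 and 107 CPM in CD8 and at 169 and 158 CPM in CD4 non-Treg cells.

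Nt5e belongs to the adenosine axis, of which 6 of 7 further genes were measured in each gate. Adora2a, the adenosine receptor that raises cyclic AMP, was higher in CD8 cells (15.7 against 24.1 CPM, 0.59), just past the limit of 0.585. In CD4 non-Treg cells it was also higher (21.9 against 37.2 CPM, 0.74). Over all genes 1.42% were higher in CD8 cells, and 1.41% higher and 1.34% lower in CD4 non-Treg cells. Ada, the deaminase that removes adenosine, was lower in CD4 non-Treg cells (6.31 against 3.78 CPM, -0.61, from 44 and 32 UMIs), and 0 of 6 passed in Treg cells. Entpd1, which encodes CD39 and acts a step before CD73, stood at 47.1 and 42.6 CPM in CD8 and at 33.8 and 37.8 CPM in Treg cells. Among 8 genes of Rab regulation and glucose uptake that surround Tbc1d4, 0 passed 1.5-fold in any of the 3 gates. Over all genes 2.36% passed in either direction in CD8, 2.75% in CD4 non-Treg and 10.4% in Treg cells. In lists this short, a count of 0 is near those shares. Tbc1d1, the closest relative of Tbc1d4, stood at 64.9 and 65.1 CPM in CD8 cells, and the glucose transporter gene Slc2a1 at 24.3 and 23.2 CPM.

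Of 6 costimulation genes 1 was higher in CD8 cells and 1 in Treg cells, and both were Tnfsf8. It stood at 25.8 and 43.8 CPM in CD8 cells (0.74, 0.57 to 0.95) and at 56.2 and 138 CPM in Treg cells (1.28, 0.97 to 1.63). The 6 genes had a median of 0.30 in the CD8 gate, where all genes had 0.04. Over all genes, 1.42% were higher and 0.94% lower in CD8 cells, and 5.13% higher and 5.27% lower in Treg cells. In CD4 non-Treg cells 1.41% of all genes were higher and 1.34% lower. Of 8 genes induced by receptor signals, Egr1 (38.7 against 23.9 CPM, -0.67) and Cd69 (271 against 179 CPM, -0.59) were lower in Treg cells, and 0 of 8 passed in the other 2 gates. Of 4 cycling genes Stmn1, which encodes the microtubule regulator stathmin, was lower in CD8 cells (341 against 194 CPM, -0.81) and in CD4 non-Treg cells (168 against 101 CPM, -0.73). The other cycling genes, Mki67, Top2a and Birc5, stayed within 1.5-fold and lay above 0 in CD4 non-Treg cells (0.54, 0.56 and 0.15), where the list's median was 0.34, and in CD8 cells lay at 0.18, -0.04 and -0.28, with a median of -0.16. Without barcodes holding Mki67 or Top2a, 2 proliferation genes, the CD8 ratios were 0.98 for Nrn1 and 0.72 for Tbc1d4.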

How the data were processed

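Each deposited matrix lists unnormalized UMI counts, 1 value for a gene in a barcode, made by the authors with Cell Ranger 7.0.1 on mm10, per the submitters' processing notes. Whether intronic reads were counted is not given in the sources used here. Barcodes with at least 500 genes and at most 10% mitochondrial UMIs were kept, and simulated-doublet scoring removed 1537 and 891 barcodes (11.1% and 8.44%), at 0.8% per 1000 barcodes. Gates were set from marker UMIs. Counts were summed per gate and library, scaled to CPM and given exact Poisson intervals, with an exact conditional binomial interval for ratios and Clopper-Pearson intervals for shares. Genes named are the 7 members, pathway genes past 1.5-fold, the 10 most like Nrn1 in level and the 10 highest in Nrn1-positive WT NOD CD4 non-Treg cells, plus members of the pathway lists and gate checks given as examples. The members and lists were chosen with earlier results of these data known. The ratio and interval steps were run on simulated Poisson counts, the model that the intervals assume. This checks the calculation only, and cannot show how the intervals hold where few cells carry many of the UMIs. Python 3.11.15 was used with numpy 2.4.6, scipy 1.17.1, pandas 2.3.3 and scikit-learn 1.9.0. A further 12 processing settings, and 4 added after seeing the data were tried. Results that rest on certain genes, among them 1 list and 1 way of dividing the cells, are not reported here.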

Additional observations from a re-analysis of the deposited data

Results flagged for a closer look

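Nrn1 went in opposite directions in 2 gates: its log2 ratio (level under the label NOD.Cxcl16-/- to WT NOD level) was 0.9529 in the CD8 gate and -0.663 in the Treg gate. With 1 library per group this difference between gates was not tested, and the CD8 value is the one for which the gene was chosen. The Treg value rested on few cells: the 10 richest barcodes held 56.0% of the WT NOD UMIs and 54.9% of those in the other library. Without shared barcodes the Treg ratio was -0.51 and no longer passed 1.5-fold.

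T-panel barcodes that entered no gate, 3069 for WT NOD and 2221 for the other library, also held Tbc1d4 transcripts. Of these barcodes 737 and 647 also passed a panel of B, plasma or myeloid cells, dendritic cells included. Migratory dendritic cells held Tbc1d4 at 1571 and 1900 CPM, and the part of such mixed barcodes was not tested. Over all the ungated T-panel barcodes Tbc1d4 stood at 219 CPM (211 to 227) for WT NOD. Under the label NOD.Cxcl16-/- it stood at 334.1 CPM (326 to 342), or 0.61 on the log2 scale. In the same barcodes Nrn1 stood at 43.3 and 49.5 CPM, Nt5e at 16.8 and 24.3 CPM, and Izumo1r at 119 and 87.4 CPM.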

How the results depend on the processing

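No paired analysis was possible because each group has 1 library, and for the same reason no replicate could be left out. The count of members past 1.5-fold in the CD8 gate was 4, and 2 (Nrn1 and Tbc1d4) with 10 CPM added. In the CD4 non-Treg gate it was 0, and 1 after thinning to 2000 UMIs (Rnf128, lower), 1 with stricter gates (Nrn1, higher) and 1 without the 10 barcodes richest in the member (Nrn1, higher). In the Treg gate it was 2, and 1 after thinning (Nrn1), 0 with 10 CPM added, 1 with at least 2000 UMIs per barcode (Nrn1) and 1 without shared barcodes (Nt5e). The cause was not tested. The other 38 values of these counts stayed within the limits of the comparison, although Izumo1r, lower, was among the members called in CD8 cells by the mean of each cell's CPM (-0.61) and in Treg cells with stricter gates (-0.65). Over the settings reported here, the Nrn1 ratio ran from 0.75 to 1.02 in CD8, 0.17 to 0.60 in CD4 non-Treg and -1.32 to -0.51 in Treg cells. That of Tbc1d4 ran from 0.66 to 1.12, 0.22 to 0.44 and -0.13 to 0.47. Cblb in Treg cells ran from -0.01 to 0.37.

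Over all genes, 127 were higher and 84 lower in the CD8 gate, against 38 and 25 with 10 CPM added, 344 and 319 after thinning, 277 and 240 by the mean of each cell's CPM, 397 and 319 with no filter on low genes, 185 and 186 without Mki67 or Top2a barcodes and 207 and 127 without hormone-bearing barcodes. In the CD4 non-Treg gate 129 were higher and 122 lower, against 24 and 30, 350 and 397, 151 and 224, 471 and 633, 167 and 212, and 218 and 191 under those settings in that order, 273 and 270 with stricter gates, and 169 and 215 with receptor, immunoglobulin, mitochondrial and ribosomal genes left out of the total. The higher genes were 51.4% of those called there, against 40.3% by the mean of each cell's CPM and 25.1% with doublets kept. In the Treg gate 472 were higher and 485 lower, against 107 and 101 with 10 CPM added, 1761 and 2143 with no filter and 943 and 789 with stricter gates. The 25 and 13 Treg cells under 2000 UMIs, and Nrn1 counts of 109 and 133 UMIs, limit what the Treg values can show.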

Other observations

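Ikzf2, which encodes the transcription factor Helios and served as a check of the Treg gate and in the stricter CD4 non-Treg gate, stood at 81.9 CPM in the CD8 gate of the WT NOD library and at 154.6 CPM in that under the label NOD.Cxcl16-/-, which is 0.91 (0.81 to 1.02) on the log2 scale. In CD4 non-Treg and Treg cells its ratios were 0.10 and 0.02. Within the CD8 gate Ikzf2 stood at 144 CPM in Nrn1-positive and 73.1 CPM in Nrn1-negative WT NOD cells, and at 218 and 137 CPM in the other library. Nkg7 showed the opposite order there, with 1195 against 1660 CPM and 1078 against 1667 CPM. Tnfsf8 stood at 50.1 against 22.4 CPM and at 116 against 23.6 CPM. These genes were singled out after their values were seen.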
